A study of Mus musculus with 564 samples.

Results

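The early transient IL-4 gains were 879 cis-regulatory elements (CREs), out of 59190 in the deposited table. Their histone H3 lysine 27 acetylation (H3K27ac) was higher 30 min after interleukin 4 (IL-4). At 4 h it was at most slightly above the unstimulated level, with no lower limit set. H3K27ac is a mark of active promoters and enhancers, and it was measured by ChIP-seq in bone marrow-derived macrophages (BMDMs), primary macrophages grown from the marrow of wild type, young adult male C57/BL6 mice. Members were chosen on the vehicle (DMSO) libraries alone. For each CRE, D was the log2 of the mean of the 2 DMSO libraries of a stimulus and time, after adding 5, minus the same for the unstimulated (UT) DMSO libraries. A CRE was a member where the mean at IL-4 30 min was at least 30 normalized read counts, D at IL-4 30 min was at least 1 and D at IL-4 4 h was at most 0.3. Of the 34686 CREs with a mean of at least 30, 4705 (13.6%) had a D of at least 1 at IL-4 30 min, and 879 of those also met the limit at 4 h.

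The study covered 564 libraries. All cells were wild type, and all were pre-treated for 1 h, either with DMSO alone or with a clinical kinase inhibitor (CKI), of which there were 58, each at a single concentration chosen from its affinity for its intended target. They were then left unstimulated or given IL-4 or the bacterial TLR4 ligand lipopolysaccharide (LPS), both at 10 ng/mL, for 30 min, 1 h, 2 h or 4 h. DMSO had 2 libraries in each of 9 groups, and the CKIs contributed 546 libraries, mostly 1 for each compound, stimulus and time. Nothing in the sources says whether the 2 DMSO libraries of a group came from separate animals or cultures, so their spread may be technical. ChIP-seq of a whole culture cannot tell a larger share of acetylated cells from more acetylation in each cell.

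IL-4 binds a receptor on macrophages that carries JAK family kinases, which phosphorylate the transcription factor STAT6. STAT6 then enters the nucleus and switches on genes of alternative activation, such as mannose receptor and lipid-handling genes. LPS acts through TLR4, NF-kB, AP-1 and MAP kinases, and its targets include cytokine and chemokine genes. Immediate early genes, such as Myc and the Fos and Egr families, respond within minutes to many stimuli, and negative regulators such as Socs3 and Trib1 can limit such responses.

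The libraries differed in depth and in contrast. The scaled total per library lay between 5923684 and 6873668 for DMSO and between 4066894 and 12391409 for the CKIs. The number of reads in CREs, estimated from the spacing of the rounded values, ranged from 2344862 to 5408325 in 16 DMSO libraries and from 172648 to 6004236 in 531 CKI libraries, and could not be estimated in the other 17. Contrast, the median of the strongest 10% of CREs over that of the weakest 10%, was 94 and 127 in the DMSO UT libraries, 66.2 and 77.2 at IL-4 30 min, and 76.4 and 76.6 at IL-4 4 h. Contrast was thus lower than in UT at both of those times, and its part in the results was not tested. It was lower in the CKI libraries, with a median of 21.9 for UT and 17.3 for IL-4 30 min. The promoter CREs of 5 macrophage marker genes, Itgam, Cd14, Lyz2, Mertk and Fcgr1, had UT means between 226 and 647, while those of Ebf1 and Col1a1 had 0.5 and 3.5 and that of the B cell gene Ms4a1 had 70. The other 4 macrophage markers checked and 11 markers of other marrow cells had no CRE nearest to them with its centre within 1 kb. A wide CRE centred further off, or one nearer to another gene, may still cover such a start. No member lay nearest to any of these 23 marker genes.

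The sequences of the strongest members are shown first, because a STAT6 site is the usual address of the IL-4 signal on DNA. STAT6 prefers the letters TTCNNNNGAA, where N is any base. Of the 10 members with the largest D at IL-4 30 min, 5 held such a match in their central 500 bases, and the 60 bases around the match nearest the centre are printed for each, on the plus strand of mm10, with the match in capitals.
Fmo9-nearest member, chr1:166776528-166776587: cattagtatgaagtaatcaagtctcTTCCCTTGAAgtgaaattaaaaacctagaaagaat
Snx25 intronic member, chr8:46138332-46138391: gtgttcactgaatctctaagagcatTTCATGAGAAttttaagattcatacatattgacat
Psmg1-nearest member, chr16:95898038-95898097: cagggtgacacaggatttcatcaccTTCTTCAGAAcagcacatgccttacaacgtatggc
Als2cr12 intronic member, chr1:58693927-58693986: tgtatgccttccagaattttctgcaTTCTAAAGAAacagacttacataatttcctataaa
Sptssa-nearest member, chr12:54444468-54444527: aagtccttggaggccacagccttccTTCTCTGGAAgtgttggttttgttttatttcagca

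The member with the largest D, at chr11:82010048-82012747 and 24.2 kb from the start of Ccl2, held no STAT6 match in its central 500 bases. Its central 300 bases are shown because it led the set. The capitals mark a PU.1 match (GAGGAANT) and a C/EBP match (TTGCNNAA), 2 families of factors that shape macrophage enhancers.
Ccl2-nearest member, chr11:82011248-82011547: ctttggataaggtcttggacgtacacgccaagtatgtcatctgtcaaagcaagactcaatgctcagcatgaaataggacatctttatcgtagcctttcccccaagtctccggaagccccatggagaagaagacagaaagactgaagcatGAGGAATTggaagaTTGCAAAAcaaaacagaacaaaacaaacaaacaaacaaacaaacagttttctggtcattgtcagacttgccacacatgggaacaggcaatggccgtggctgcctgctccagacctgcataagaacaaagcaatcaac

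Across all members, 218 of 879 (24.8%) held TTCNNNNGAA on either strand of the central 500 bases, against 14.3% of all 59190 CREs and 15.4% of the 48427 CREs outside promoters. Among the 2615 lasting IL-4 gains, which had a D of at least 1 at both 30 min and 4 h, 46.8% held it. The lasting gains thus carried the STAT6 letters more often than the early transient gains, as a count without a test. They also rose more at 30 min, with a median D of 1.84 against 1.25 for members, and the part of this was not tested. Between these sets lay 1211 CREs that met the limits at 30 min but had a D above 0.3 and under 1 at 4 h. Their median D at 30 min was 1.32, and 29.0% held the STAT6 letters. The AP-1 site TGANTCA was in 326 members (37.1%), 33.3% of these 1211 CREs, 30.0% of the lasting gains and 30.2% of CREs outside promoters. PU.1 letters were in 27.4% of members and C/EBP letters in 28.0%, against 23.4% of CREs outside promoters for each. The IRF repeat GAAANNGAAA was in 11.0% of members and 8.53% of those CREs, and the CArG box of SRF was in 3.87% and 2.68%. The NF-kB letters GGGNNTTTCC were in 3.30% of members and 4.10% of CREs outside promoters, and the EGR letters GCGTGGG in 1.71% and 2.72%. The motifs may overlap each other, and a match is not evidence of binding. Members were lower in GC than other CREs, with a median of 43.4% against 47.6% for all CREs, and the part of base composition in these shares was not tested.

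**Figure D1:**
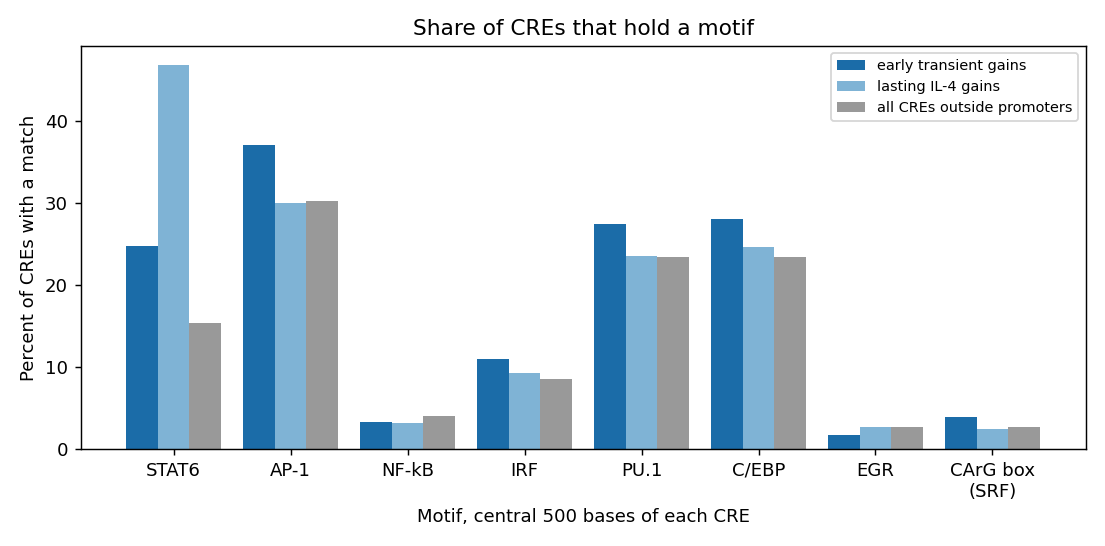
Percent of CREs (vertical axis) with at least 1 match to each of 8 motifs (horizontal axis) in their central 500 bases, for the 879 early transient gains, the 2615 lasting IL-4 gains and the 48427 CREs outside promoters. The STAT6 bars stand at 24.8%, 46.8% and 15.4%, and the AP-1 bars at 37.1%, 30.0% and 30.2%.

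Members were distal elements. Only 35 of 879 (3.98%) lay within 1 kb of the start of a protein-coding transcript, against 18.2% of all CREs and 4.74% of lasting gains. Of the rest, 392 were intronic, 21 exonic and 431 (49.0%) intergenic, where 35.4% of all CREs and 46.5% of lasting gains were intergenic. The median distance to the nearest start was 37.8 kb, against 15.4 kb for all CREs and 29.0 kb for lasting gains. Beyond 50 kb lay 42.0% of members, against 22.2% of all CREs and 34.2% of lasting gains. The median width was 1673 bp against 1652 bp for all CREs. Among the autosomes chromosome 15 held the largest share, with 75 members among its 2587 CREs (2.90%), where the members made up 1.49% of the table. Of these 75, 26 lay in a single locus around Trib1 and 17 in another nearest Myc.

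In the DMSO libraries, which chose the members, the median member value was 41 and 39 in the 2 UT libraries, 108 and 111 at IL-4 30 min, 61 and 77 at 1 h, 41 and 49 at 2 h, and 32 and 34 at 4 h. Median D was 1.25 at 30 min, 0.71 at 1 h, 0.23 at 2 h and -0.09 at 4 h. Median D was lower at 1 h than at 30 min, but the members were chosen for a high value at 30 min. At 2 h 495 of 879 members were at or under 0.3. At 1 h 234 members still had a D of at least 1. For 851 members 30 min was the highest of UT and the 4 IL-4 times. At 4 h the mean lay below UT in 496 members, with a lowest D of -2.13. The IL-4 30 min libraries were both above both UT libraries in 878 members, where 42.1% of the 34686 CREs with a mean of at least 30 showed this, and the rule used both groups. These values describe the selection and were not tested.

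**Figure D2:**
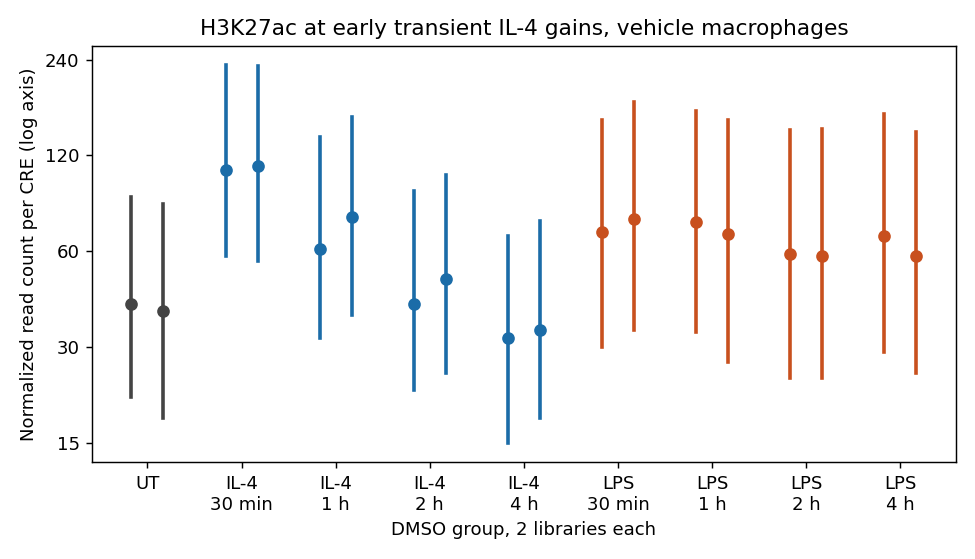
Normalized read count per CRE (vertical log axis) for the 879 members in each of the 18 DMSO libraries, grouped by stimulus and time on the horizontal axis. Points are medians over members and lines span the middle 50% of members. The medians reach 108 and 111 at IL-4 30 min, fall to 32 and 34 at IL-4 4 h, and lie between 58 and 76 in the 8 LPS libraries.

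Most gains were moderate, and D at IL-4 30 min ran from 1.00 to 2.77, with 45 members at 2 or more and 654 under 1.5. Just inside that limit lay CREs nearest Gm597 and Hdac4, both with a D of 1.00, and just outside lay CREs nearest Bcl2a1d (0.9989) and Il1b (0.997). At the 4 h limit, members nearest Pde8a and Hsd17b10 had a D of 0.29956, and CREs nearest Sugct and Hacd1, at 0.301656, were left out. At the limit on level, members nearest Bcl6 and Hcar2 had a mean of 30, and CREs nearest Agr3 and Fos, at 29.5, were left out. The set thus has no sharp edge. With replicate numbers 1 and 2 taken as pairs, 606 members had a D of at least 1 in both. Replicate numbers did not pair the libraries, so this matching was arbitrary.

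The 10 members with the largest D were picked on values that the rule used, so they are described without a test. Their D at IL-4 2 h ran from 0.44 to 2.05, against a median of 0.23 over all members. The Ccl2-nearest CRE, close to the gene of a monocyte-attracting chemokine, had 87 and 72 in UT, 602 and 541 at IL-4 30 min, 446 and 554 at 1 h, 278 and 371 at 2 h, and 81 and 108 at 4 h. Its UT and 4 h libraries were alike and those from 30 min to 2 h all stood above them. It also had 738 and 788 at LPS 1 h and 157 and 107 at LPS 4 h. A CRE in an intron of Snx25, a sorting nexin, went from 21 and 36 in UT to 203 and 226 at 30 min and was at 25 and 37 at 4 h. An intergenic CRE 94.7 kb from Fmo9 had 8 and 10 in UT, 99 and 80 at 30 min and 7 and 13 at 4 h. In both, the 4 h libraries overlapped the UT libraries. A pair of CREs 160.3 kb and 176.4 kb from Tbc1d2b had D values of 2.52 and 2.54, and the first had 56 and 62 in UT against 363 and 362 at 30 min. A CRE in an intron of Rasa2, which encodes a Ras GTPase-activating protein and whose own start was not the nearest, stayed high longer, with 139 and 148 at 30 min, 118 and 156 at 1 h and 74 and 119 at 2 h against 21 and 18 in UT. The other members of the 10 lay 92.8 kb from Psmg1 (D of 2.65), 147.4 kb from Spdye4c (2.52), in an intron near the start of Als2cr12 (2.50) and 211.9 kb from Sptssa (2.48).

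Many members lay close together on the genome. With members no more than 100 kb apart joined, there were 521 loci, of which 367 held 1 member, 79 held 2 and 75 held 3 or more, and the last held 354 members. Members lay nearest to 544 genes, and 74 genes were nearest to at least 3. Neighbouring CREs share chromatin and are not independent of each other.

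The largest locus, chr15:59386237-59867733, held 26 members among its 58 CREs, 15 nearest Trib1, a pseudokinase that steers protein degradation in myeloid cells, and 10 nearest Nsmce2. D at IL-4 30 min ran there from 1.04 to 2.00. Its leading CRE, 181.5 kb from Trib1, had 205 and 188 in UT, 852 and 753 at IL-4 30 min, 498 and 524 at 1 h, 258 and 262 at 2 h, and 187 and 148 at 4 h. After LPS it had 498 and 577 at 30 min, 300 and 279 at 1 h and 598 and 649 at 4 h, so that the LPS values were high early and late and lower between.

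The next locus, chr15:62059347-62401967, held 17 members among 37 CREs, all nearest Myc, which encodes a transcription factor of cell growth, at 72.7 to 413.8 kb from its start. Its leading CRE had 47 and 50 in UT, 299 and 249 at 30 min and 25 and 21 at 4 h. The 4 h libraries were thus under both UT libraries. Another locus, chr19:34339737-34501771, held 14 members among 22 CREs, 12 of them nearest Ch25h, which encodes cholesterol 25-hydroxylase. The leading CRE there had 120 and 98 in UT, 504 and 536 at IL-4 30 min and 81 and 100 at IL-4 4 h, while LPS gave 201 and 181 at 30 min and 428 and 408 at 4 h. IL-4 was thus highest at 30 min and LPS at 4 h at this element.

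At chr11:81995557-82102487, 12 of 20 CREs were members, 7 nearest Ccl2 and 2 nearest Ccl12, both chemokine genes. The Ccl2 promoter CRE itself was a member, with 108 and 98 in UT, 244 and 261 at IL-4 30 min and 56 and 65 at 4 h. At chr5:17820769-17882875, 9 of 10 CREs were members, all nearest Cd36, which encodes a scavenger receptor for oxidized lipids. The leading one, in a Cd36 intron, had 173 and 152 in UT, 731 and 767 at 30 min, 367 and 413 at 1 h, 124 and 172 at 2 h, and 54 and 84 at 4 h. It ended below UT. At chr16:95748534-95946383, 9 of 19 CREs were members, 7 nearest Psmg1 and 2 nearest Ets2, a transcription factor gene. The leading one had 26 and 19 in UT and 148 and 188 at IL-4 30 min, but 353 and 417 at LPS 30 min, so LPS gave the higher values.

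**Figure D3:**
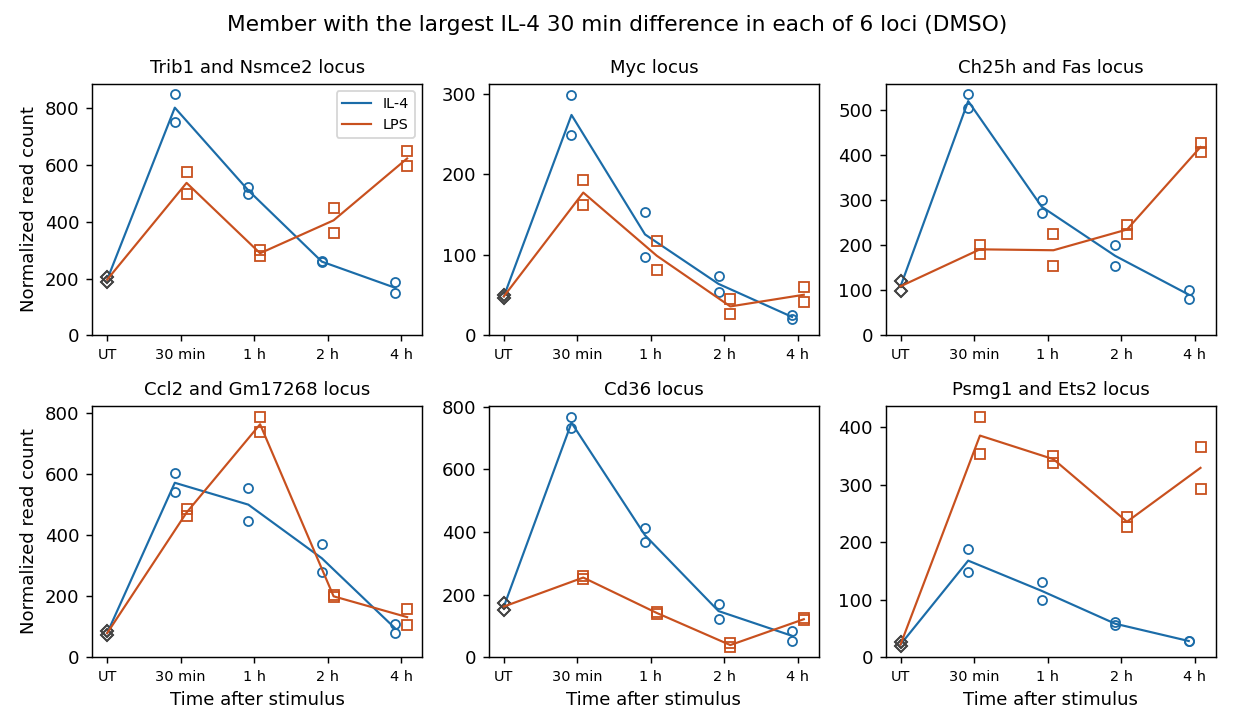
Normalized read count (vertical axis) in UT and at 30 min, 1 h, 2 h and 4 h (horizontal axis) for the member with the largest D at IL-4 30 min in each of the 6 loci with most members. Symbols are single DMSO libraries (diamonds UT, circles IL-4, squares LPS) and lines join group means. IL-4 peaks at 30 min in all 6, whereas LPS ends high at the Trib1, Ch25h and Psmg1 loci.

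The CKI libraries were not used to choose the members, and they gave the test of the early gain. The fit was limma on log2(value + 5) with compound as a factor, and a call needed a Benjamini-Hochberg adjusted p under 0.05 together with a log2 difference of more than 0.5 in either direction. All 879 members passed the minimum mean of 10. IL-4 30 min was higher than UT in 648 members and lower in 0, where 12.1% of all 59167 CREs were called higher and 3.78% lower. The lower direction had 0 members also at an unadjusted p under 0.05. The median difference over members was 0.66, against 0.12 over all CREs, and 876 members had a positive difference. The 3 with a negative one lay nearest Tuft1, Clvs1 and Tnc. The remaining 231 members did not pass both limits, while 850 members had a positive difference at an unadjusted p under 0.05. After quantile normalization, which moved the median over all CREs to -0.03, 437 members were called higher and 0 lower.

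The return was tested in the same fit, in which 55 of the 58 CKIs had an IL-4 4 h library. IL-4 30 min was higher than IL-4 4 h in 746 members (84.9%) and lower in 0, also at an unadjusted p under 0.05, where 11.8% of CREs were called higher and 3.42% lower. The median difference was 0.84 against 0.10 over all CREs. IL-4 4 h against UT gave 7 members higher and 150 lower, where 9.36% of CREs were called higher and 11.3% lower, and the median was -0.17. Between these times, 316 members were higher than UT at 1 h and 3 lower (background 11.6% and 6.81%), and 48 were higher and 112 lower at 2 h (9.7% and 13.4%). The members' medians at 1 h and 2 h were 0.41 and -0.04. The CKI differences were smaller than in DMSO, where the members were chosen, and so was the contrast of the CKI libraries, whose part in this was not tested. The CKIs stand in the table in 6 consecutive blocks of 8 or 10 compounds, which the labels do not name as batches. With each block fitted alone, 337 to 644 members were called higher at IL-4 30 min than in UT, and 0 lower. The same blocks gave 284 to 810 members higher at 30 min than at 4 h, and 23 to 424 lower at 4 h than in UT. With any 1 block left out, 120 to 180 members were lower at 4 h than in UT. These comparisons share the UT or the IL-4 30 min libraries and are not independent of each other.

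**Figure D4:**
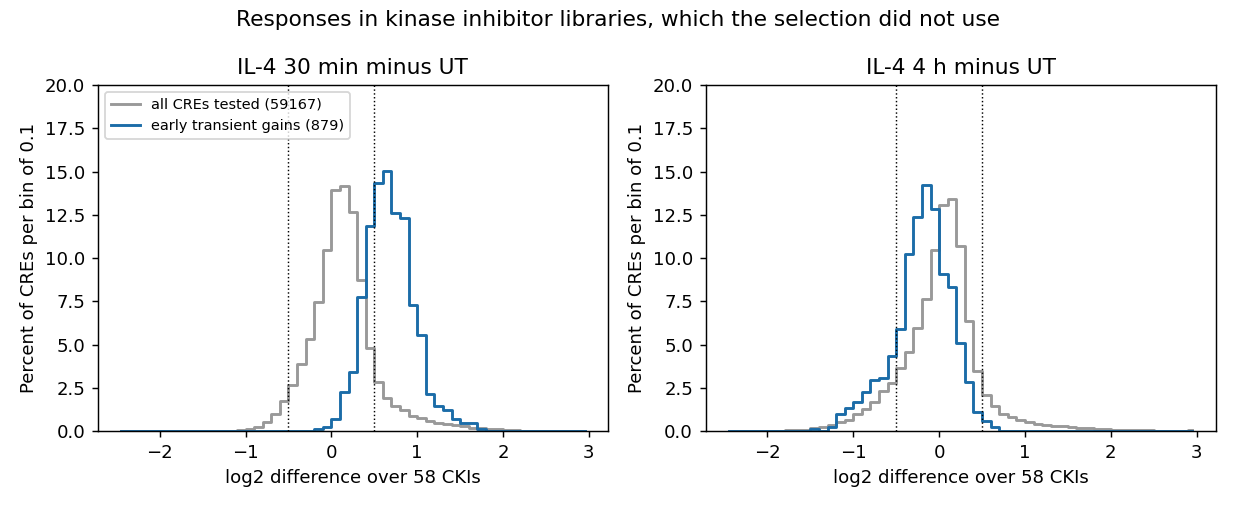
Percent of CREs (vertical axis) per bin of log2 difference (horizontal axis, bins of 0.1) for all 59167 CREs tested and the 879 members, at IL-4 30 min and at IL-4 4 h against UT in the CKI libraries. Dotted lines mark a difference of 0.5 in size. The members centre on 0.66 at 30 min and on -0.17 at 4 h, against 0.12 and 0.05 for all CREs.

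The members that rose most in the CKI libraries lay near genes of varied roles. The largest difference was at the promoter CRE of Rab15, a gene for a small GTPase of endosomes, at 1.71 (SE 0.124, adjusted p = 1.5e-35 by limma). Its values over 58 CKIs had a lowest, median and highest of 10, 25.2 and 99 in UT and of 17, 92.8 and 266 at IL-4 30 min. The ranges overlapped, and the difference was positive in 55 of 58 compounds. The second was a CRE 10.6 kb from Il1b, the gene of interleukin 1 beta, at 1.67 (SE 0.071), where UT ran from 46 to 131 and IL-4 30 min from 173 to 397 without overlap. In DMSO this CRE had 78 and 64 in UT, 366 and 379 at IL-4 30 min and 79 and 78 at 4 h. A CRE in an intron of Clec1a, a C-type lectin receptor gene, differed by 1.63 at 30 min and by 0.67 at 4 h (limma adjusted p = 4.0e-11), as 1 of the 7 members called higher then. The Cd36 intronic CRE differed by 1.55 (SE 0.087) at 30 min and by -0.59 at 4 h, both called. A CRE 45.3 kb from Errfi1, which encodes a feedback inhibitor of EGF receptor signalling, differed by 1.49, and a CRE 8.6 kb from Ch25h by 1.51. The other 4 of the 10 highest lay nearest Ccl2 (1.56), Tbc1d2b (1.62), Als2cr12 (1.59) and Sptssa (1.63). The 3 called members with the smallest differences, all at 0.50, lay nearest Osbp, Ttc39c and Hdac4. Most compounds have 1 library per group, so a range over compounds also holds the effects of the compounds themselves.

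The largest loci are given with the number of members that passed this test, which over all members was 648 of 879 (73.7%). Whether the loci differed from each other was not tested. IL-4 30 min was called higher than UT in the CKI libraries in 21 of 26 members at the Trib1 locus, 10 of 17 at Myc, 13 of 14 at Ch25h, 12 of 12 at Ccl2, 9 of 9 at Cd36 and 7 of 9 at Psmg1. The leading Trib1 CRE differed by 1.23 (SE 0.057), the Myc one by 0.95 (SE 0.114) and the Ch25h one by 1.41 (SE 0.123). At 4 h the Myc CRE was lower than UT by -1.08 (SE 0.117, limma adjusted p = 5.6e-18), and the Ch25h one had a difference of -0.44 that did not reach the limit on size. The CRE nearest the start of Ccl2 was higher by 0.77 at 30 min and lower at 4 h, by -0.84, with both called.

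Smaller loci held several shapes. At chr16:38375901-38434067, 6 of 8 CREs were members, nearest Popdc2 and the phospholipase gene Pla1a. The leading one had 151 and 110 in UT, 661 and 647 at IL-4 30 min, 86 and 96 at IL-4 4 h and 851 and 983 at LPS 30 min, so that the early values were high after both stimuli. At chr8:10945364-11188530, 6 of 22 CREs were members, 4 of them nearest Irs2, which encodes an adaptor that docks on the IL-4 and insulin receptors. The leading one, 62.2 kb from Irs2, had 53 and 55 in UT, 179 and 198 at IL-4 30 min, 20 and 33 at IL-4 4 h and 46 and 73 at LPS 30 min. Its LPS libraries spanned the UT ones, and none of the 6 had a D of 1 at LPS 30 min. In the CKI libraries it was higher than UT by 0.72 at 30 min (SE 0.105) and lower at 4 h, by -0.78 (SE 0.107), with both called. At chr10:18916430-19048403, 4 of 5 members lay nearest Tnfaip3. The leading one had 68 and 43 in UT, 178 and 167 at IL-4 30 min and 950 and 1051 at LPS 30 min, and LPS was higher than IL-4 in the CKI libraries (-2.32, SE 0.084, limma adjusted p = 8.5e-103). A CRE 57.6 kb from Osgin2 was unlike most members in keeping 67 and 102 at IL-4 1 h, against 76 and 61 at 30 min and 12 and 13 in UT. It was among the 7 members called higher at 4 h in the CKI libraries, by 0.55 (SE 0.090), and LPS took it to 309 and 304 at 2 h.

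Members nearest to genes of fixed lists were counted next. The JAK-STAT feedback and receptor list of 18 genes had 124 CREs nearest to it, of which 2 (1.61%) were members, close to the 1.49% of the whole table. One was the promoter CRE of Socs3, the feedback inhibitor of JAK kinases, with 269 and 222 in UT, 533 and 503 at IL-4 30 min, 511 and 503 at 1 h, and 194 and 197 at 4 h. It rose by 0.52 at 30 min in the CKI libraries (SE 0.048, limma adjusted p = 2.3e-23) and reached 1298 and 1279 at LPS 4 h in DMSO. The other lay 132.1 kb from Bcl6, a repressor gene. Over the 124 CREs, 34 (27.4%) were called higher and 3 (2.42%) lower at IL-4 30 min against UT, beside 12.1% and 3.78% of all CREs, with a median of 0.17 beside 0.12.

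The alternative activation list of 29 genes had 22 members among 219 CREs (10.0%), but 17 of these were the Myc CREs and 4 were intronic CREs nearest the mannose receptor gene Mrc1, with 1 nearest Tfec. Myc alone was nearest to 60 of the 219 CREs, so the shares over this list lean on 1 gene. Of the 219 CREs, 128 (58.4%) were called higher at 30 min against UT and 0 lower, with a median of 0.66 beside 0.12 for all CREs, while 69 were higher and 17 lower at 30 min than at 4 h. None of the 17 was a member, since 0 members were called lower in that comparison. The immediate early list of 38 genes had 24 members among 451 CREs (5.32%), the same 17 of Myc plus 3 nearest Dusp6, 2 nearest Dusp4 and 2 nearest Klf6. Dusp4 and Dusp6 encode phosphatases that switch off MAP kinases. The same 60 CREs nearest Myc were among the 451. Over the 451 CREs 109 (24.2%) were called higher and 29 (6.43%) lower at IL-4 30 min against UT, more than the 12.1% and 3.78% of all CREs in both directions, while the median of 0.14 was close to the 0.12 of all CREs. No CRE nearest Fos, Egr1 or Atf3 was a member, although a CRE nearest Fos lay just outside the limit on level.

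The inflammatory NF-kB list of 31 genes had 22 members among 266 CREs (8.27%, against 1.49% for the whole table), nearest to 8 genes. Among them were 7 nearest Ccl2, 4 nearest Il1a, 3 nearest Il1b and 4 nearest Tnfaip3, whose product restrains NF-kB. Those nearest Il1a and Il1b shared a locus of 7 members, so a few loci held most of the 22. A CRE 6.8 kb from Il1a, the gene of interleukin 1 alpha, had 12 and 5 in UT, 70 and 59 at IL-4 30 min and 8 and 10 at 4 h, against 312 and 331 at LPS 30 min. Its level after IL-4 was thus well under that after LPS, and in the CKI libraries the direct difference was -1.75 (SE 0.100, limma adjusted p = 3.4e-53). Of the 266 CREs, 71 (26.7%) were called higher and 5 (1.88%) lower at IL-4 30 min against UT, beside 12.1% and 3.78% of all CREs, and the median was 0.27.

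The shares of members in the other lists lay nearer to the 1.49% of the whole table. The interferon-induced list had 1 member among 94 CREs (1.06%), 26.7 kb from Gbp5, with a D of 1.85 at IL-4 30 min and 4.51 at LPS 30 min. The growth factor and cytoskeleton list had 3 among 190 (1.58%), nearest Ccn2, Thbs1 and Spred1, and the macrophage lineage list had 3 among 290 (1.03%), nearest Maf, Tfec and Mitf. The markers of other marrow cells had 1 among 32 (3.12%), in an intron of Flt3, a receptor gene of progenitors and dendritic cells. It had 122 and 110 in UT, 394 and 327 at IL-4 30 min, 59 and 65 at IL-4 4 h and 74 and 93 at LPS 30 min. The IL-4 30 min libraries stood above UT and the LPS ones below it, and in the CKI libraries IL-4 was higher than LPS at 30 min by 1.51 (SE 0.083, limma adjusted p = 7.6e-56).

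LPS responses varied widely among members. In DMSO the median D was 0.66 at LPS 30 min, 0.56 at 1 h, 0.37 at 2 h and 0.44 at 4 h. These share the UT libraries with the rule and were not tested. A D of at least 1 at LPS 30 min was seen in 352 members, where 12.2% of CREs with an IL-4 30 min mean of at least 30 had one. At or under 0.3 were 317 members. The median at LPS 30 min was 0.10 over all CREs, and -0.16 over the 33807 other CREs with a mean of at least 30. Of the 352, 70 were at or under 0.3 at LPS 4 h, so these 70 had the transient shape after both stimuli. The matching shares of all CREs were not counted for the 317 or the 70. The AP-1 letters were in 43.2% of the 352 and in 33.8% of the 317, and the STAT6 letters in 23.9% and 25.6%. The NF-kB letters were in 20 of the 352 (5.68%) and 3 of the 317 (0.946%), against 3.85% of all CREs. These NF-kB counts are small, and none of these shares was tested.

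DMSO groups that the rule did not use gave tests of the same point. LPS 30 min was higher than LPS 4 h in 312 members and lower in 191, where 20.3% of 50587 CREs were called higher and 23.0% lower, and the median difference was 0.27. The Myc CRE named above fell from 30 min to 4 h of LPS by this test (1.73, SE 0.249, limma adjusted p = 1.6e-07), while the Ch25h one was lower at 30 min (-1.11, SE 0.163, adjusted p = 2.6e-07). IL-4 1 h was higher than LPS 1 h in 302 members (34.4%) and lower in 274 (31.2%), where 27.1% and 25.9% of CREs were called. IL-4 1 h was higher than IL-4 2 h in 159 members (18.1%) and lower in 0, also at an unadjusted p under 0.05, where 1.41% and 0.0297% were called, and the median difference was 0.53. With 1 DMSO IL-4 1 h library left out, replicate 2, that count was 27, and without IL-4 2 h replicate 1 it was 40.

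In the CKI libraries LPS 30 min was higher than UT in 357 members and lower in 84, where 20.6% and 18.9% of CREs were called. LPS 4 h was higher than UT in 329 and lower in 132 (background 21.1% and 20.8%). The direct difference between the stimuli at 30 min split the members. IL-4 was higher in 347 (39.5%, against 22.1% of all CREs) and LPS in 147 (16.7%, against 13.2%), 385 were not called, and the median was 0.31. The Cd36 intronic CRE was higher after IL-4 by 1.23 (SE 0.090, limma adjusted p = 1.4e-35) and the Ch25h one by 1.30. The Psmg1-nearest CRE was lower after IL-4 (-0.94, SE 0.091), and the Ccl2-nearest CRE had a difference of 0.02 (SE 0.087, limma adjusted p = 0.85) that did not pass.

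The early gain was seen under nearly all of the kinase inhibitors. Over members, the median IL-4 30 min minus UT difference was positive in 57 of 58 compounds and above that compound's median over all CREs in 58 of 58. It ran from -0.05 for Talmapimod to 1.28 for SGX523, with a middle value of 0.68. Both ends went with libraries that stood apart. Talmapimod had a median of -0.34 over all CREs and a UT contrast of 7.02 against 14.0 at IL-4 30 min, with 1 read worth 12.8 units in UT. SGX523 had 0.87 over all CREs and a contrast of 47.0 in UT against 5.68 at IL-4 30 min. Lenvatinib, at 0.89 over members and 0.86 over all CREs, had the smallest gap, and 1 read was worth 18.8 units in its IL-4 30 min library. Without the 8 CKIs whose median over all CREs exceeded 0.3 in size, 601 members were called higher at IL-4 30 min and 0 lower. Single members were positive in 22 to 58 compounds, with a median of 51.

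**Figure D5:**
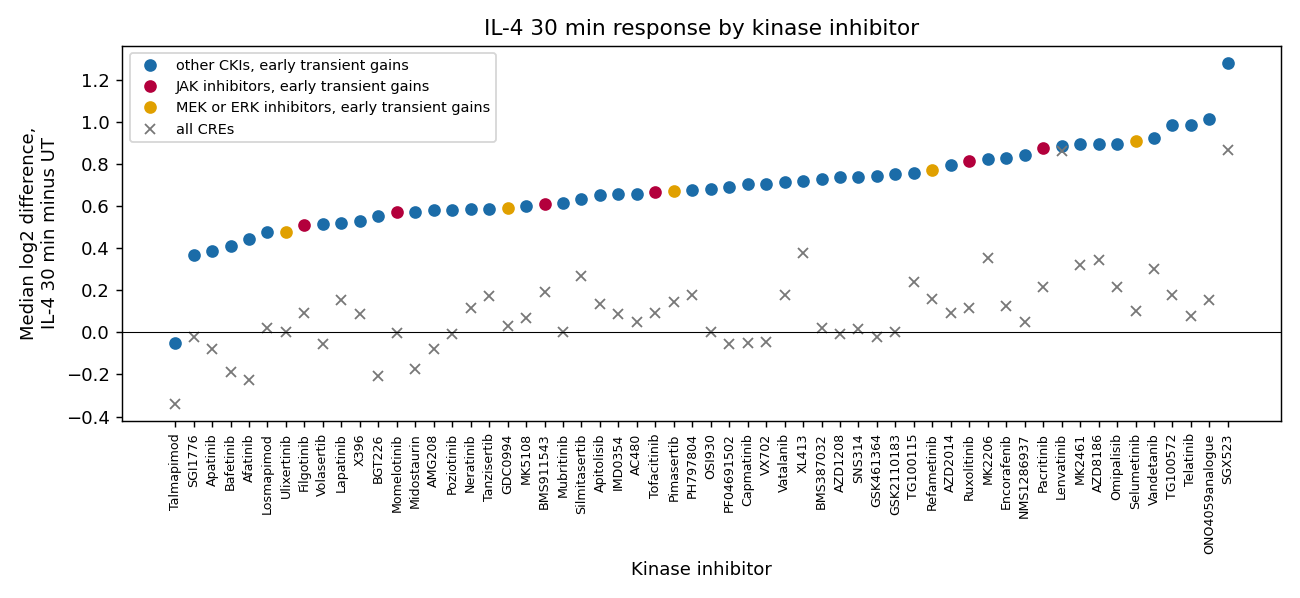
Median log2 difference between IL-4 30 min and UT (vertical axis) for each of 58 kinase inhibitors (horizontal axis, ordered by the members' median). Filled points are medians over the 879 members, coloured by inhibitor class, and crosses are medians over all CREs. The 6 JAK inhibitors lie between 0.51 and 0.88 and the 5 MEK or ERK inhibitors between 0.48 and 0.91.

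JAK inhibitors were compared with the rest because JAK kinases carry the IL-4 signal. The members' median difference was 0.51 for Filgotinib, 0.57 for Momelotinib, 0.61 for BMS911543, 0.67 for Tofacitinib, 0.82 for Ruxolitinib and 0.88 for Pacritinib. These lie inside the range of the 52 other CKIs, whose middle value was 0.69. With compounds as replicates, 0 members were called higher or lower in JAK inhibitors, and 0.0% of 59147 CREs were called in either direction. At an unadjusted p under 0.05, 3 members were higher and 13 lower. The members' class differences had a median of -0.02 and their standard errors a median of 0.248, with 5th and 95th percentiles of -0.41 and 0.28, so the comparison could not resolve small class differences at single CREs and does not show that the classes act alike. MEK and ERK inhibitors act on the kinases that lie between growth factor or TLR signals and immediate early genes. Their medians were 0.48 for Ulixertinib, 0.59 for GDC0994, 0.67 for Pimasertib, 0.77 for Refametinib and 0.91 for Selumetinib. Again 0 members were called in either direction (background 0.0%), with 2 higher and 7 lower at an unadjusted p under 0.05, a median difference of -0.02, 5th and 95th percentiles of -0.34 and 0.34, and a median standard error of 0.269.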

How the data were processed

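H3K27ac ChIP-seq libraries of mouse BMDMs were taken as the authors deposited them, as 1 table of normalized read counts per CRE, rounded to whole numbers, so their unit was taken to be a score and no count model was used. Per the study's methods, adapters were removed, single-end reads were trimmed and mapped to mm10 with ShortStack, reads were counted around ATAC-seq peak summits, and libraries were scaled on invariant peaks. The submitters' processing notes name Bowtie, SAMtools and mm10. No table of the authors' own comparisons was used.

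Groups followed the sample labels. Differences were fitted with limma (version 3.58.1, R 4.3.3) on log2(value + 5) over CREs with a mean of at least 10, with trend and with Benjamini-Hochberg adjustment over all CREs tested. The addition of 5 lowers the differences of weak CREs. CKI fits used compound as a factor, class fits used 1 IL-4 30 min minus UT difference per compound, and DMSO fits used all 18 DMSO libraries. Calls were made at an adjusted p of 0.05 with a log2 difference beyond 0.5 in size. The fits were tested on simulated data with known changes. Where libraries of a group are not from separate cultures, p-values measure only the spread between these libraries. The DMSO comparisons rest on 2 libraries a group.

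The value of 1 read was estimated from the spacing of a library's values. In simulated libraries this recovered 19 of 20 values above 1 and 4 of 10 below 1, so estimates near or below 1 were dropped. Contrast and depth are given in the results. CREs were placed by their centre against the protein-coding genes of the GENCODE basic annotation on mm10. Those within 1 kb of the start of a protein-coding transcript were called promoters. All 21 chromosomes held the CREs within their ends. Motifs were searched on both strands of the central 500 bases. A result for 1 further motif is not reported here.

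The members, gene lists and motifs were chosen with earlier results of these data known. Members described singly were the 10 with the largest DMSO difference, the 10 called ones with the largest and the 3 with the smallest CKI difference, up to 3 per gene list, those at the genes nearest to the most members, and the CREs next to each limit of the rule. The Ccl2 promoter CRE and the leading CREs of the smaller loci were named after their values were seen. Alternatives covered the added constant, the filter, the scaling, left-out libraries, the replicate number and blocks of compounds. Leaving out the 8 CKIs with a shifted median and fitting each block alone were chosen after seeing the data.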

Additional observations from a re-analysis of the deposited data

Results flagged for a closer look

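IL-4 and LPS differed by a direct limma contrast at many members. At 30 min in the CKI libraries, IL-4 was higher in 347 members (39.5%, against 22.1% of all CREs) and lower in 147 (16.7%, against 13.2%). Those higher after IL-4 included the Cd36 intronic, Ch25h-nearest and Flt3 intronic CREs, and those lower included the CREs nearest Il1a, Gbp5 and Psmg1. At 1 h in DMSO, in groups that the rule did not use but with a spread estimated from all 18 DMSO libraries, IL-4 was higher in 302 members (34.4%, against 27.1% of all CREs) and lower in 274 (31.2%, against 25.9%). Apart from the first, these shares lie near those of all CREs. Contrast was lower in LPS 30 min than in IL-4 30 min libraries of the CKIs, with medians of 13.5 and 17.3, and its part in these differences was not tested. The DMSO groups were too small for a search for outlying libraries.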

How the results depend on the processing

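The members called higher at IL-4 30 min than in UT (648), and higher at 30 min than at 4 h (746), kept counts within 1.5 times under every alternative run except blocks of compounds fitted alone, where the first gave 337 in run 1 and 427 in run 6 and the second 284 and 321. A run is a block of compounds in column order. Counts at IL-4 4 h against UT were the least stable. The 150 lower members became 391 with no minimum difference, and 23, 318, 424 and 36 with runs 1, 4, 5 and 6 alone. The 7 higher members became 85 with no minimum difference, 2 with 20 added before the log, 2 after quantile normalization, 11 without the libraries whose titles end in b, 11 without run 5, and 32, 22, 14, 18, 3 and 43 with runs 1 to 6 alone. With no minimum difference, 224 members were lower at IL-4 30 min than at LPS 30 min and 166 were lower at LPS 30 min than in UT. IL-4 1 h was higher than IL-4 2 h in 27 to 126 members with 1 library left out, where a group with 1 library is assumed to vary like the others. The rule gave 571 members with 20 added (485 shared with the 879), 609 after quantile normalization (520 shared), and 999 and 1142 without replicate 1 or 2 (579 and 656 shared). Of the alternatives for members named singly, 564 kept their call, 59 lost it, 3 gained it and 1 reversed, the Osbp-nearest CRE (chr19:11956771-11958414) at -0.13 with run 1 alone. Replicate numbers did not pair the libraries (correlations of deviations between -0.09 and 0.07 over 36 pairs of groups), and with the replicate block 157 members were higher at IL-4 1 h than 2 h. The block moved no count of calls by over 1.5 times. The causes of these changes were not tested. Depth limits the CKI libraries, where 1 read was worth up to 23.6 units.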
